A study of Mus musculus with 12 samples.

Results

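The genes described here encode the protein subunits of the cytosolic ribosome. They were taken from the platform annotation by name, as genes whose single symbol is Rpl or Rps followed by a number and at most one of the letters a, x or l, together with the stalk genes Rplp0 to Rplp2 and Rpsa. The rule found 46 of the 18193 genes with a single symbol. They comprise 20 small-subunit genes, 20 large-subunit genes, 2 stalk genes (Rplp0 and Rplp2) and 4 paralogs of ribosomal protein genes (Rps27l, Rpl39l, Rpl3l and Rps4l). Where a gene had several probe sets, the one with the highest mean log2 signal over the 12 arrays stood for it.

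A cytosolic ribosome joins a small subunit, which reads the mRNA, to a large subunit, which forms the peptide bond, and each contains many proteins held by ribosomal RNA. The mRNAs of these proteins are among the most abundant in growing cells and begin with a run of pyrimidines, the terminal oligopyrimidine (TOP) tract, through which mTOR signalling and the RNA-binding protein Larp1 set how much of each mRNA is translated. Building the subunits takes place mainly in the nucleolus and needs a separate set of assembly factors, many of which are targets of Myc.

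Signals came from 12 Affymetrix arrays of NIH3T3 cells, an established mouse fibroblast line, with 2 arrays in each of 6 groups. The groups were Yap cells at high density, Tead2-VP16 cells at high density, completely confluent Tead2-VP16 cells, low-density Tead2-EnR cells, completely confluent control cells and low-density control cells. All were infected, the control cells with control virus. Tead2 binds DNA and Yap is its coactivator; the VP16 fusion activates its targets, and the fusion to EnR, from Engrailed, represses them. High density means that the cells still proliferated at a density a little beyond the confluency of normal cells, and low density means 30% confluency, which for Tead2-EnR was judged on those cells. No control was taken at high density, so density and construct cannot be told apart in the comparisons of Yap or Tead2-VP16 cells at high density with confluent control cells. Whether the paired arrays stand for independent dishes is not stated, and p-values therefore reflect only array-to-array spread, which may be technical.

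Replicate arrays correlated at 0.9976 to 0.9986 (Pearson r across genes, which are not independent replicates). The 9 fibroblast markers examined all lay above the median gene signal of 6.87 log2 units, as did 1 of 4 epithelial, 2 of 5 macrophage, 0 of 3 endothelial, 0 of 3 adipocyte and 1 of 4 muscle markers. With so few arrays, precision is limited. The actin integrity control differed between groups: its 3′ minus 5′ log2 signal was 0.234 ± 0.017 in confluent control cells and 0.081 ± 0.0066 in low-density control cells (SD, n = 2 each), while Tead2-EnR cells gave 0.154 ± 0.020, Yap cells 0.122 ± 0.0080 and Tead2-VP16 cells 0.231 ± 0.078 at high density and 0.274 ± 0.11 at complete confluency. The transferrin receptor 3′ minus 5′ signal ran from 0.941 on a low-density control array to 1.54 on a confluent Tead2-VP16 array, and the group means of the Gapdh control lay between -0.284 and -0.231. Their part in the results was not tested.

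The sequences around the annotated start sites were searched for short pyrimidine words, in view of the TOP tract. RefSeq start sites (GRCm38.p6) were available for 40 of the 46 genes. Each window printed here runs from 60 bases before an annotated start to 30 bases after it, 5′ to 3′, and capitals mark each match to CTTTC or CTTTT, and each match to CTCTT, and also CTTCC, lying from 40 bases before the start onwards, with overlapping matches run together. Rplp2 and Rpl38 are shown as genes with nearly the same signal in every group. Rps6, Rpl12, Rps25 and Rps27l are shown as genes with repeated calls, which Rpl14 and Rpl39 also had.
Rplp2, chr7:141447591-141447680, plus strand: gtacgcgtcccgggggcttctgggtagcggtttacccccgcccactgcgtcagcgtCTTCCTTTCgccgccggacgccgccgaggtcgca
Rpl38, chr11:114668520-114668609, plus strand: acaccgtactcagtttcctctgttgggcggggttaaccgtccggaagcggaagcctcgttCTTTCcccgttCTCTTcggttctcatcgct
Rps6, chr4:86857338-86857427, minus strand: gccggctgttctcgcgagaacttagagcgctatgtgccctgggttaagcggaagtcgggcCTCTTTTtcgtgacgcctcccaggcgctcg
Rpl12, chr2:32961652-32961741, plus strand: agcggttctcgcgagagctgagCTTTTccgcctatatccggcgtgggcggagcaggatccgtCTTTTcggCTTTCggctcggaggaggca
Rps25, chr9:44407654-44407743, plus strand: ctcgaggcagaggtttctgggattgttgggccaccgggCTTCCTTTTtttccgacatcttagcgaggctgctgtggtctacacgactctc
Rps27l (upstream start), chr9:66946026-66946115, plus strand: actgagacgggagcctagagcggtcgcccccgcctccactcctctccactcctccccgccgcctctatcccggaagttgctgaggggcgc
Rps27l (downstream start), chr9:66946353-66946442, plus strand: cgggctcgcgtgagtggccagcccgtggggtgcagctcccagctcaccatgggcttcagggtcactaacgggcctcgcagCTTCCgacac

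Rplp2, Rpl38, Rps6 and Rpl12 carry such a run at or within a few bases of the annotated start, and Rpl12 has a further match upstream. In Rps25 the run lies just upstream of the RefSeq start, and the upstream start of Rps27l has none. Each gene was searched on the sense strand from 40 bases before to 50 bases after the start. A gene with several starts counted if any of them held a match, as Rps27l did through its downstream start. At least 1 of these 4 words occurred in 34 of the 40 ribosomal protein genes (85.0%) and in 42.9% of 27025 genes in all. The exceptions were Rplp0, Rpl27, Rpl41, Rps4x, Rps16 and Rps28. A word in that window need not begin the mRNA, and its absence does not show that a TOP tract is missing. That window and the 4 words were settled after the sequences had been looked at. Other motifs were searched over the full 300 bases (250 before to 50 after the start) and on both strands, again by gene. The ETS core CGGAAG was present in 29 of the 40 (72.5%, against 18.8% of all genes) and the Sp1 box GGGCGG in 22 (55.0%, against 38.2%). The YY1 core AAGATGG was present in 7 (17.5%, against 7.3%). The E-box CACGTG, which Myc binds, was present in 4 (10%, against 8.1%) and the Tead motif GGAATG in 5 (12.5%, against 16.6%). The 5 genes with GGAATG were Rpl22, Rps16, Rps24, Rps26 and Rps27. These matches describe the letters in the window and say nothing about binding.

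On the probe sets chosen for them, most ribosomal protein genes had a very high signal that was nearly the same in all 6 groups. Of the 46 genes, 33 had a mean log2 signal above 13, a level that 109 of the 18193 genes reached. Within these 33 genes every array lay between 13.26 and 14.53, and the difference between the highest and lowest group mean had a median of 0.11 log2 units and a maximum of 0.28. These values lie near the top of the scale, whose highest value on any array was 14.67, and dimmer probe sets of some of the same genes differed more between groups (-1.46 for one of Rps24 in confluent over low-density control cells). The other 76 genes with a mean above 13 had a median range of 0.46. How far the top of the scale compresses differences was not tested. Over all 46 genes that range had a median of 0.16, against 0.39 over all genes on the arrays. It was below 0.1 for 14 genes, below 0.2 for 27 and below 0.3 for 36. It was above 0.5 for 4 genes, namely Rps25, Rpl12, Rps27l and Rpl27a. The mean over the 46 genes lay between 12.40 and 12.49 on all 12 arrays. Signals are relative to the RNA put on each array, so fewer expressing cells and less mRNA per cell cannot be told apart.

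Signals of different probe sets are not on one scale of mRNA amount, so the 11 genes with a mean below 12 are not thereby rarer mRNAs. Rps16 and the paralogs Rpl3l and Rps4l lay below the median gene. The single Rps16 probe set averaged 3.38, far below the other small-subunit genes, and that gene's values have little signal behind them. RefSeq lists Rps4l as a transcribed pseudogene. The arrays of Rpl27a disagreed within a group: Tead2-VP16 cells at high density gave 7.20 and 8.37. A further 28 symbols of the same pattern occurred only on probe sets annotated to several symbols and are not analysed gene by gene here.

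**Figure D1:**
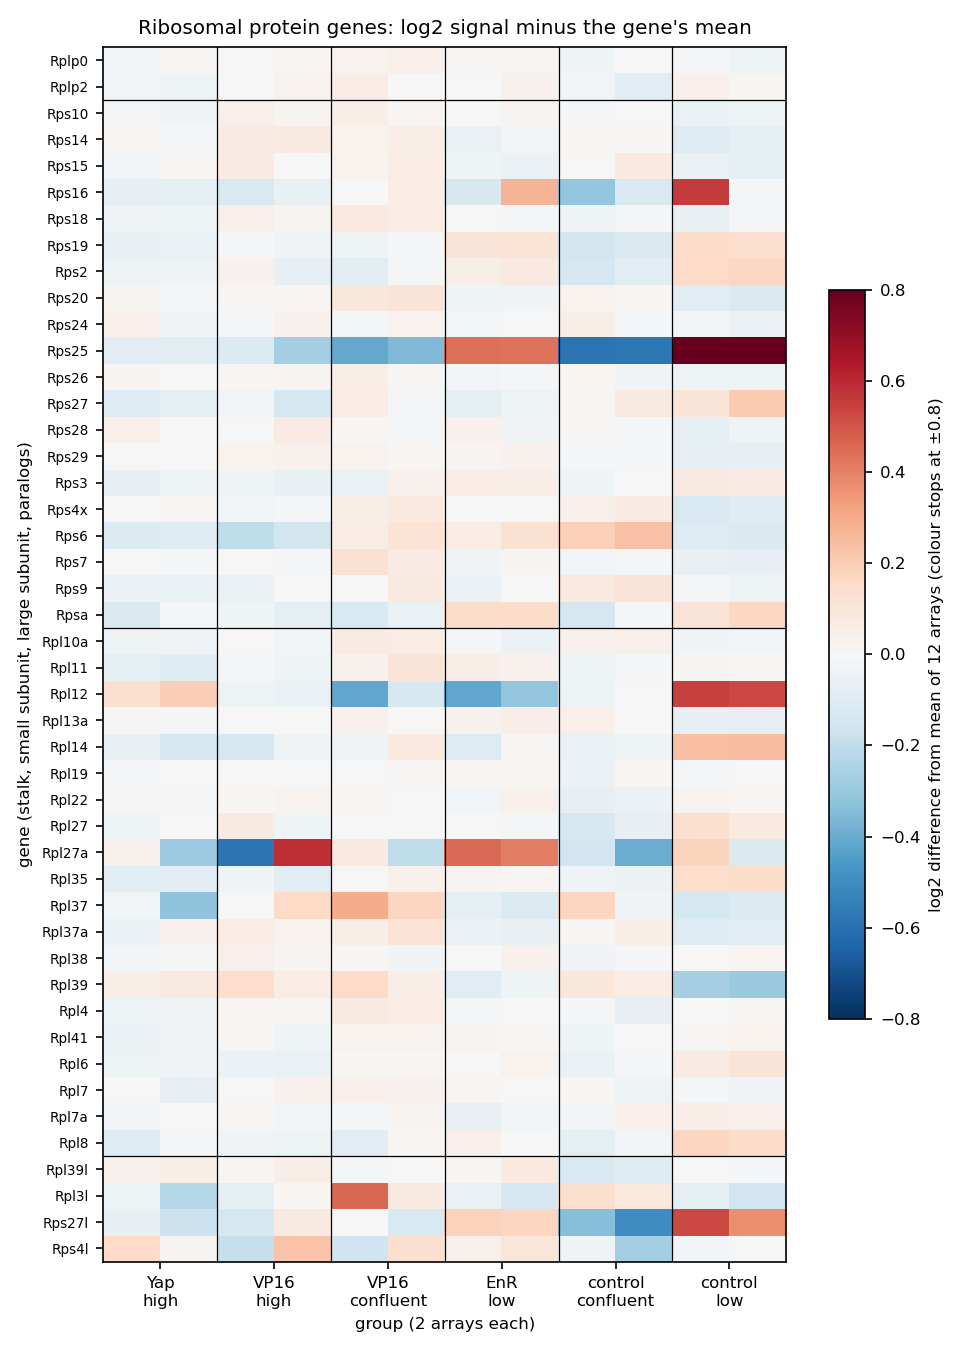
Log2 signal of each of the 46 genes minus its own mean over the 12 arrays, by array (columns, 2 per group) and gene (rows, ordered stalk, small subunit, large subunit, paralogs); red is above and blue below the gene's mean. Most rows are nearly white, while Rps25, Rps27l and Rpl12 are red in low-density control cells, where Rps25 lay at 10.80 and 10.78.

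The first comparison asked what density does to control cells, by setting complete confluency against 30% confluency. Among the 46 genes 3 rose and 11 fell, and 32 were not called (adjusted p below 0.05 is a call here). The called share was 30.4%, against 48.9% of all genes (26.1% higher and 22.8% lower). That lower share depends on the probe sets and the variance model: it was 47.8% against 47.6% of all genes when a gene's probe sets were averaged, 54.3% against 49.5% with a variance trend and robust prior, and 64% of 25 genes against 45.9% with probe sets lacking the suffixes _x, _s and _a. Among genes above the median level the shares were 46.5% of 43 ribosomal protein genes and 81.8% of all. The median log2 fold change was -0.03 over the 46 genes and -0.01 over all genes. By role, 2 small-subunit genes rose and 5 fell, 1 large-subunit gene rose and 5 fell, 1 of the 4 paralogs fell, and neither stalk gene was called.

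Rps25, a small-subunit protein that viral internal ribosome entry sites need in yeast and human cells, fell most. It had log2 signals of 9.39 and 9.40 in confluent control cells, against 10.80 and 10.78 in low-density control cells. The pairs lie far apart, a 2.62-fold difference (log2 fold change -1.39, SE 0.060, adjusted p = 3.38e-08). On the chosen probe sets it was also the only one of the 46 genes past 2-fold in any of the 7 comparisons. Other probe sets of Rpl22, Rpl37a, Rps24 and Rps9 passed 2-fold in this comparison.

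Rps27l, the paralog of Rps27 and a p53 target in human cells, had signals of 12.25 and 12.09 in confluent control cells, against 13.12 and 12.96 in low-density control cells. Its log2 fold change was -0.87 (SE 0.093, adjusted p = 2.19e-05), and its other probe sets gave -0.81 and -0.95, so all 3 fell. Rps27 itself was not called, at -0.12. Rpl12, which sits at the base of the stalk and holds Rplp0, had signals of 8.39 and 8.43 in confluent control cells, against 8.98 and 8.96 in low-density control cells, with a log2 fold change of -0.56 (SE 0.086, adjusted p = 0.000326). The groups do not overlap for either gene.

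Among genes at the top of the signal range the differences were smaller but the arrays were close. Rps2, at the channel where mRNA enters the small subunit, had 14.08 and 14.14 in confluent control cells and 14.38 and 14.39 in low-density control cells (log2 fold change -0.28, adjusted p = 0.0020). Rps19, the gene most often mutated in human Diamond-Blackfan anaemia, had 13.42 and 13.45 in confluent control cells and 13.71 and 13.69 in low-density control cells (log2 fold change -0.27, adjusted p = 0.000829). Both genes were lower in every confluent array, but with 2 arrays per group such a lack of overlap is common. How often it occurred over all genes was not counted. Rpl14 fell by 0.29, Rpsa by 0.21, Rpl8, which lines the peptidyl transferase centre, by 0.21, Rpl27 by 0.20 and Rpl35, near the exit tunnel, by 0.18 on the log2 scale. Leaving out 1 control array ended the calls of Rpsa (-0.15 without confluent array 1 and -0.18 without low-density array 2), Rpl8 (-0.18 without confluent array 1 and -0.20 without low-density array 1), Rpl27 (-0.17 and -0.18 without the same arrays) and Rpl35 (-0.17 without confluent array 2). Rps16 also passed, at -0.49, but without low-density array 1 the value was -0.21, and the call held in 8 of 20 alternative settings.

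The 3 genes that rose were Rpl39, Rps6 and Rps4x. Rpl39, a short protein of the exit tunnel, had 7.82 and 7.79 in confluent control cells and 7.46 and 7.44 in low-density control cells (log2 fold change 0.36, SE 0.057, adjusted p = 0.000392). Rps6, the S6 kinase substrate downstream of mTOR, had 10.95 and 10.99 in confluent control cells and 10.66 and 10.64 in low-density control cells (log2 fold change 0.32, SE 0.052, adjusted p = 0.000462). For both genes the confluent arrays were higher than the low-density arrays, which with 2 arrays per group carries little weight by itself. Rps4x, encoded on the X chromosome, rose by 0.16 and lost its call without confluent array 2 or low-density array 1 (0.15 each).

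Most of the 32 genes that were not called had narrow intervals. For 28 of them, 60.9% of the 46 genes, the 95% interval of the density difference lay within 1.2-fold in either direction, a bound set after the data had been seen, against 15.8% of all genes. The other 4 were Rpl27a (-0.99 to 0.38), Rpl37 (-0.05 to 0.43), Rpl3l (-0.04 to 0.48) and Rps4l (-0.46 to 0.17). Rplp0, the stalk protein that recruits elongation factors, had 14.22 and 14.25 in confluent control cells and 14.24 and 14.22 in low-density control cells (log2 fold change 0.01). Rplp2, its acidic partner, had 14.30 and 14.24 in confluent control cells and 14.36 and 14.34 in low-density control cells (-0.08, adjusted p = 0.235). Rpl11, part of the 5S particle that binds Mdm2, gave -0.04.

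**Figure D2:**
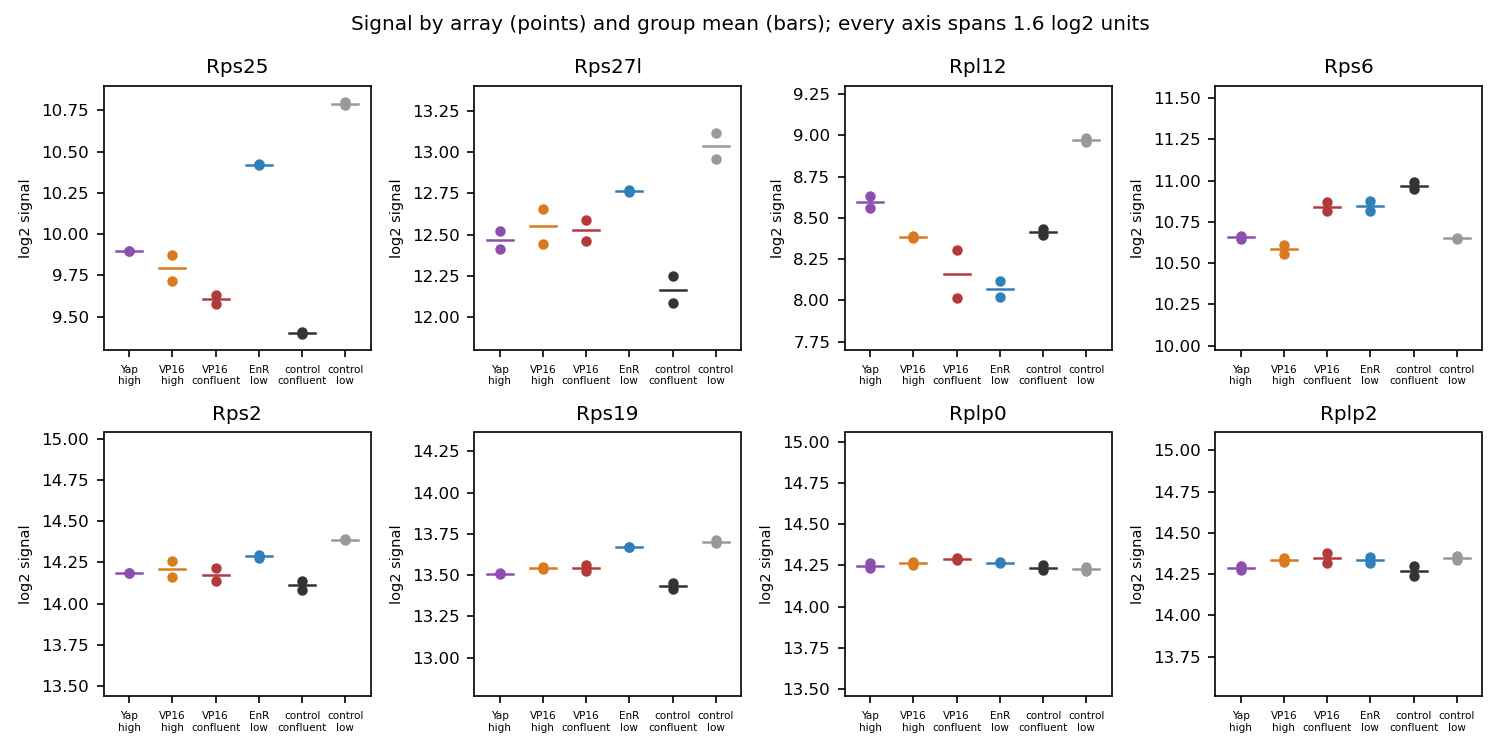
Log2 signal by array (points) and group mean (bars) of 8 genes in the 6 groups; each vertical axis spans the same number of log2 units. Rps25 has its lowest array in confluent control cells (9.39) and its highest in low-density control cells (10.80), while no Rplp0 array leaves 14.22 to 14.29.

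The repressor fusion Tead2-EnR was set against control vector at low density, and the control arrays are those of the density comparison. In Tead2-EnR cells 2 of the 46 genes rose and 5 fell (15.2%, against 38.4% of all genes, 20.3% higher and 18.1% lower). With probe sets averaged the shares were 34.8% and 36.2%, and with those lacking the suffixes 48% of 25 genes and 35.4%. Of the 5 macrophage markers Lyz2 was higher, with a mean of 10.49 in Tead2-EnR cells and 7.76 in low-density control cells (log2 fold change 2.74), Cd68 was lower (-0.57) and Ptprc, at 3.26 in Tead2-EnR and 3.51 in low-density control cells, Adgre1 and Csf1r were not called; their part in the results was not tested. The median log2 fold change was 0.02, against -0.01 over all genes. Rpl12 moved most, with 8.02 and 8.12 in Tead2-EnR cells against 8.98 and 8.96 in low-density control cells (log2 fold change -0.90, SE 0.086, adjusted p = 2.33e-05, 1.87-fold). The low-density control arrays were its highest of all 12, and Tead2-EnR had its lowest group mean.

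Rps25 had 10.42 and 10.42 in Tead2-EnR cells, below the 10.80 and 10.78 of low-density control cells (log2 fold change -0.37, SE 0.060, adjusted p = 0.000756). Rpl14 fell by 0.29, Rps27l by 0.27 (adjusted p = 0.0429) and Rps27, which had not been called in the density comparison, by 0.21 (adjusted p = 0.0222). Rpl39 rose by 0.22 and Rps6 by 0.20, with Rps6 at 10.82 and 10.88 in Tead2-EnR cells against 10.66 and 10.64 in low-density control cells. The 2 groups do not overlap for any of these 7 genes, but with 2 arrays per group this was common among genes not called too. How often it occurred over all genes was not counted. With 1 Tead2-EnR array in place of 2, some of these calls were lost. The calls lost were those of Rps27l and Rps27 without either array (-0.28 and -0.27 for Rps27l, -0.19 and -0.23 for Rps27), Rpl14 without array 1 (-0.23), and Rpl39 (0.20) and Rps6 (0.17) without array 2. Without low-density control array 2 Rps27 (-0.16), Rpl39 (0.21) and Rps6 (0.19) lost theirs, and without array 1 Rps27l did (-0.19), as it did without either Yap array (-0.27 each). For 33 genes (71.7%, against 21% of all genes) the 95% interval lay within 1.2-fold, and Rplp0 (0.04), Rplp2 (-0.01), Rpsa (0.01) and Rpl11 (0.03) were not called.

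At complete confluency the activator fusion Tead2-VP16 was set against control vector. Only Rps27l was called among the 46 genes (2.17%, against 9.98% of all genes, 5.06% higher and 4.92% lower), and it was higher. It had 12.59 and 12.46 in Tead2-VP16 cells, against 12.25 and 12.09 in confluent control cells, a log2 fold change of 0.36 (SE 0.093, adjusted p = 0.0398). The pairs do not overlap, which was also so for many genes not called and was not counted over all genes. The call held in 9 of 20 alternative settings, and the value without single arrays of these groups lay between 0.28 and 0.44. It also missed the threshold without any 1 of the Yap or Tead2-EnR arrays, which share the estimate of spread (0.36 each). The median over the 46 genes was 0.05, against -0.01 over all genes, and for 38 genes (82.6%, against 36.3% of all genes) the 95% interval lay within 1.2-fold. Rpl12, at 8.02 and 8.31 in Tead2-VP16 cells against 8.39 and 8.43 in confluent control cells, gave -0.25 and was not called.

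Yap cells and Tead2-VP16 cells at high density were each set against confluent control cells, so the comparisons share those control arrays. In both, the same genes were called: Rps25 and Rps27l rose and Rps6 fell. That is 6.52% of the 46 genes in each comparison, against 26.1% of all genes for Yap (11.7% higher and 14.5% lower) and 26.9% for Tead2-VP16 (13.2% higher and 13.7% lower). The median log2 fold change was -0.01 in Yap cells and 0.02 in Tead2-VP16 cells, against -0.0026 over all genes for Yap and 0.01 for Tead2-VP16.

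Rps25 had 9.90 and 9.90 in Yap cells and 9.87 and 9.71 in Tead2-VP16 cells at high density, against 9.39 and 9.40 in confluent control cells. The log2 fold change was 0.50 for Yap (SE 0.060, adjusted p = 0.000259) and 0.39 for Tead2-VP16 (adjusted p = 0.000975), and every high-density array lay above the confluent control arrays and below those of low-density control cells. Rps6 had 10.65 and 10.66 in Yap cells and 10.56 and 10.61 in Tead2-VP16 cells, against 10.95 and 10.99 in confluent control cells. Its log2 fold change was -0.31 for Yap (SE 0.052, adjusted p = 0.00166) and -0.39 for Tead2-VP16 (adjusted p = 0.000465). A second Rps6 probe set with a mean of 5.34 gave 0.31 for Yap and 0.35 for Tead2-VP16, so the probe sets differ in direction, and their average gave 0.000106 and -0.02.

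Rps27l had 12.52 and 12.41 in Yap cells and 12.45 and 12.65 in Tead2-VP16 cells, against 12.25 and 12.09 in confluent control cells. Its log2 fold change was 0.30 for Yap (adjusted p = 0.0396) and 0.38 for Tead2-VP16 (adjusted p = 0.0122). Its other probe sets gave 0.32 and 0.36 for Yap and 0.39 and 0.50 for Tead2-VP16, all called in a limma fit over all probe sets. In that fit the chosen probe set of Rps27l was called for Tead2-VP16 but not for Yap. Its call was lost for Yap without Yap array 1 (0.25) or 2 (0.35), without confluent control array 2 (0.22) and without either Tead2-EnR array (0.30 each), and for Tead2-VP16 without its array 2 (0.28) or confluent control array 2 (0.30). The genes called for Yap also changed with either array of confluent Tead2-VP16 cells left out, since those arrays share the estimate of spread. The 95% interval lay within 1.2-fold for 36 genes in Yap cells (78.3%, against 27.6% of all genes) and for 39 in Tead2-VP16 cells (84.8%, against 27.4%). The stalk genes and Rpsa lay between 0.01 and 0.07 in both comparisons.

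Between Yap and Tead2-VP16 cells at the same labelled density limma called 0 of the 46 genes, against 2.02% of all genes (0.934% higher and 1.08% lower), and 2 had an unadjusted p below 0.05. The median log2 fold change, Yap over Tead2-VP16, was -0.02 in both the 46 genes and all genes, and the extremes were -0.25 and 0.21. For 39 genes (84.8%, against 45% of all genes) the 95% interval lay within 1.2-fold. Within Tead2-VP16 cells, complete confluency against high density gave 1 gene higher and 1 lower (4.35%, against 24.5% of all genes, 12.1% higher and 12.4% lower). Rps6 rose, with 10.82 and 10.87 at complete confluency against 10.56 and 10.61 at high density (log2 fold change 0.26, adjusted p = 0.00584). The dim second Rps6 probe set (mean 5.34) gave -0.01 here. The Rps6 call held in 20 of 21 alternative settings, with values down to 0.12. Rps25 was lower, with 9.58 and 9.63 at complete confluency against 9.87 and 9.71 at high density (log2 fold change -0.19, adjusted p = 0.0477), and that call held in 5 of 21 alternative settings, with -0.11 without high-density array 1, -0.16 and -0.22 without complete-confluency arrays 1 and 2, and -0.19 where arrays of other groups were left out. The median was 0.01 over the 46 genes and -0.02 over all genes, and the interval lay within 1.2-fold for 38 genes (82.6%, against 27.1% of all genes).

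**Figure D3:**
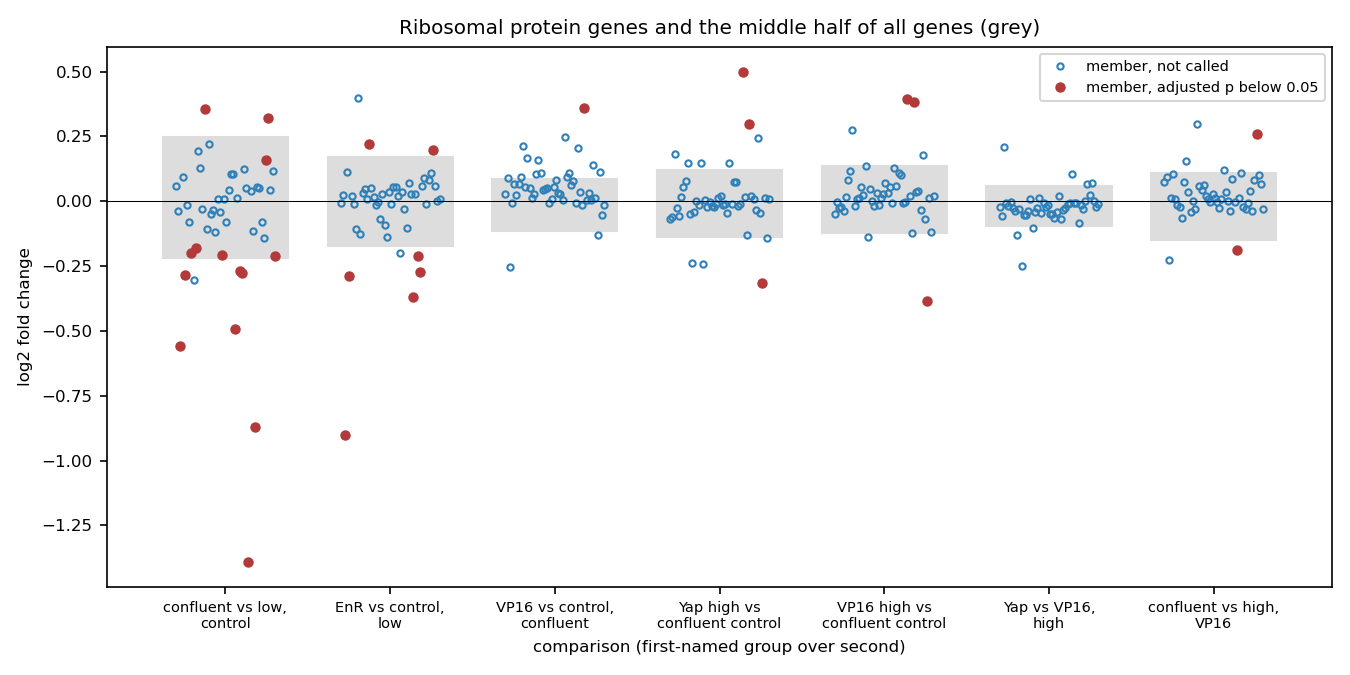
Log2 fold change of the 46 genes (points, filled where the adjusted p is below 0.05) in 7 comparisons, the first-named group over the second; grey spans the lower to the upper quartile of all genes. The points lie mostly within the grey span, and the largest departure is Rps25 in confluent against low-density control cells (-1.39).

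Over the 7 comparisons 15 of the 46 genes were called at least once and 31 never, against 60.3% of all genes called at least once, and 9 of the 15 were called in 1 comparison alone. Rps25, Rps27l and Rps6 were called in 5 of the 7 each. Of the 15 genes, 9 are represented by 1 probe set each, among them Rps25, Rpl12, Rpl14 and Rpl39. Of the 33 genes with a mean above 13, 7 were called at least once (21.2%, against 88.2% of the other 76 genes at that level), and of the 11 below 12, 7 were (63.6%, against 59.9% of other genes below 12).

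In the control density, Tead2-EnR and both high-density comparisons with confluent control, assembly and initiation genes had larger median differences than the ribosomal proteins on their chosen probe sets. Of those probe sets 33 lay above 13 log2 units, near the top of the scale. With probe sets lacking the suffixes _x, _s and _a the ribosomal protein medians were larger in size for control density, Tead2-EnR and Yap. How far signal level and probe set choice set the lists apart was not tested. The lists were ribosome assembly factors, initiation factors, elongation factors with other TOP mRNAs, and regulators of TOP translation. Of all genes, 22.8% fell in confluent against low-density control cells and 18.1% in Tead2-EnR cells. Against confluent control, 11.7% of all genes rose in Yap cells and 13.2% in Tead2-VP16 cells at high density. Of 42 measured ribosome assembly genes, 42 fell in confluent against low-density control cells (median log2 fold change -1.29), 40 fell in Tead2-EnR cells (-0.87), 33 rose in Yap cells at high density against confluent control (0.46) and 38 in Tead2-VP16 cells (0.50). Nop16, a large-subunit assembly factor, had a mean of 7.90 in confluent control cells and 10.14 in low-density control cells (-2.24). Nhp2 and Dkc1, of the particles that pseudouridylate ribosomal RNA, gave -2.14 and -2.58. Within Tead2-VP16 cells 33 fell at complete confluency against high density (-0.42), where 12.4% of all genes fell. Against confluent control 1 rose at complete confluency (Ebna1bp2, 0.31), where 5.06% of all genes rose.

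Of 25 initiation factors 22 fell and 2 rose in confluent against low-density control cells (median -0.56), and 21 fell in Tead2-EnR cells (-0.37). In these comparisons 22.8% and 18.1% of all genes fell. Eif3b, a scaffold subunit of the factor that binds the small subunit, gave -1.16, and Eif6, which keeps the subunits apart, -1.17. In Yap cells at high density 11 of the 25 rose and 2 fell (0.13), while 11.7% of all genes rose and 14.5% fell. The 17 elongation factors and other TOP mRNAs had a median of 0.0047 with confluency in control cells, where 4 of them rose and 6 fell. Of the 10 TOP and mTOR regulators 2 rose and 5 fell with confluency in control cells, and the fallers included Larp1 (-0.96), Myc (-1.06) and the cap-binding inhibitor Eif4ebp1 (-1.09). Of all genes 48.9% were called in that comparison, 26.1% higher and 22.8% lower, and the counts of these short lists are to be read beside those shares.

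Of 8 further ribosomal protein genes outside the naming rule 4 were measured. Fau and Rps3a1, which encode standard subunits, were called in none of the 7 comparisons by limma (unadjusted p 0.0312 for Rps3a1 in the density comparison). Rpl22l1, the paralog of Rpl22, averaged 12.05 in confluent and 12.40 in low-density control cells (-0.34), fell by 0.55 in Tead2-EnR cells, and was lower in Yap (-0.41) and Tead2-VP16 cells (-0.44) at high density than in confluent control cells. Within Tead2-VP16 cells it rose by 0.41 at complete confluency against high density. Rpl7l1, a paralog of Rpl7, fell by 0.40 with confluency in control cells and by 0.45 in Tead2-EnR cells, and rose by 0.19 in both Yap and Tead2-VP16 cells at high density.

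**Figure D4:**
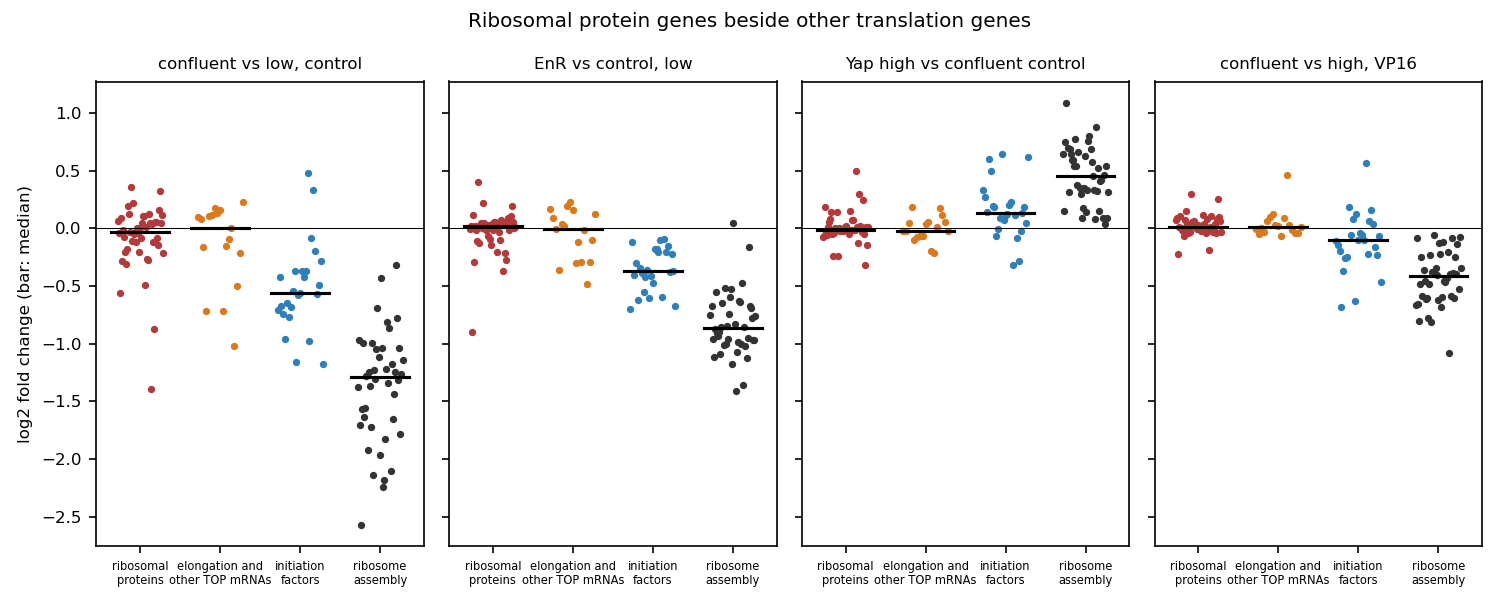
Log2 fold change of each gene (points) and median (bars) for ribosomal proteins, elongation factors with other TOP mRNAs, initiation factors and ribosome assembly genes in 4 comparisons, the first-named group over the second. Ribosome assembly genes have a median of -1.29 in confluent against low-density control cells, where ribosomal proteins have -0.03 on their chosen probe sets, most of them near the top of the scale.

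The 46 genes have 100 probe sets in all, and the 54 others do not all behave like the ones chosen. Of 33 others with a mean above 10 log2 units, 10 were lower and 0 higher in confluent against low-density control cells, in a limma fit over all probe sets where 38.8% were called, 18.6% lower and 20.2% higher. Those 10 included the other probe sets of Rps27l, and 4 of Rpl35, whose 6 probe sets were all lower. Of the 21 others at or below 10, 9 were lower and 4 higher. For Rps24 the chosen probe set had 14.07 and 14.01 in confluent and 14.01 and 13.97 in low-density control cells, while another, with a mean of 8.55, had 8.19 and 8.24 in confluent and 9.69 and 9.65 in low-density control cells (-1.46). The first pair of groups nearly coincides and the second lies far apart.

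Rps9 had a similar pair, with a probe set of mean 7.54 at 7.05 and 7.16 in confluent and 8.46 and 8.52 in low-density control cells (-1.39), whereas its chosen probe set was not called. The same probe set gave -1.17 in Tead2-EnR cells against low-density control and 0.83 in Yap cells against confluent control. A dimmer probe set of Rpl37a (mean 9.11) fell by 1.54 and one of Rps10 (mean 6.34) by 0.98 with confluency in control cells. A probe set of Rpl22 with a mean of 9.65 went the other way, with 10.46 and 10.49 in confluent and 8.13 and 8.25 in low-density control cells (log2 fold change 2.28), 1.21 in Tead2-EnR cells and -0.74 in Yap cells. With Affymetrix probe sets lacking the suffixes _x, _s and _a, which mark probes shared between transcripts, 25 of the 46 genes could be measured. They were called more often than all genes in 6 of the 7 comparisons. Their median was then -0.20 in the control density comparison, -0.11 for Tead2-EnR and 0.08 for Yap, against -0.03, 0.02 and -0.01 with the chosen probe sets. Which transcripts the dimmer probe sets bind was not tested.

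**Figure D5:**
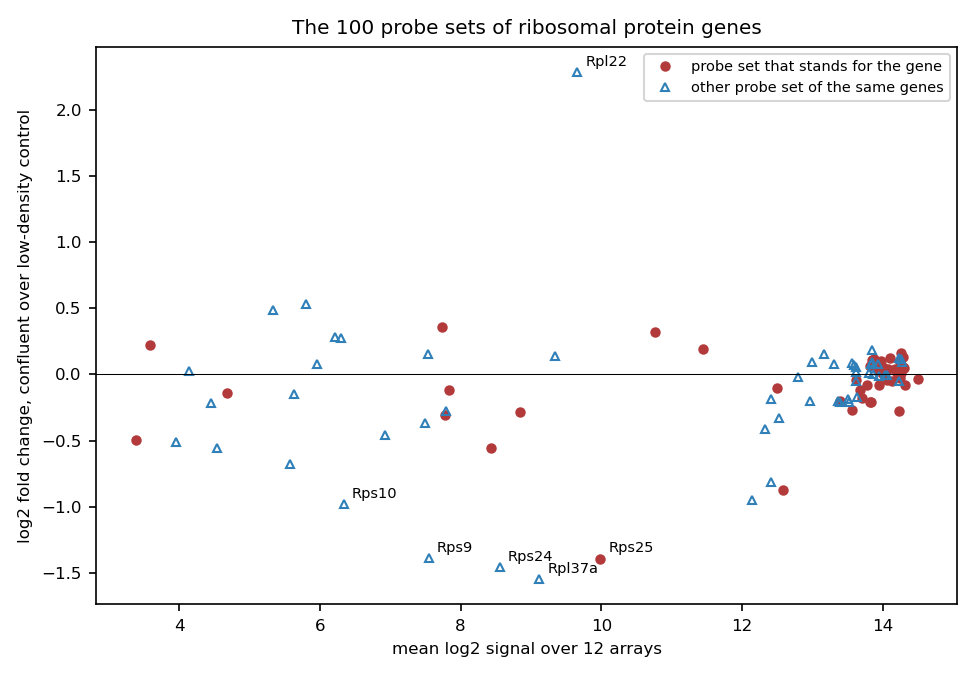
Log2 fold change, confluent over low-density control cells, of the 100 probe sets of the 46 genes against their mean log2 signal over 12 arrays; filled circles stand for the gene, open triangles are other probe sets of the same genes. Above 13 log2 units all points lie close to 0, and the wide values, 2.28 for Rpl22 and -1.54 for Rpl37a, lie at or below 10.

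The 5 other genes whose signal followed the mean of the 46 genes most closely over the 12 arrays were Arhgap18 (Pearson r 0.932), Prpf19 (0.925), Prkar2b (0.921), Fam107b (0.917) and Ptpn21 (0.916). These are descriptions over arrays that share a normalization, and the mean of the 46 genes itself moved only between 12.40 and 12.49. That mean was 12.40 in confluent and 12.48 in low-density control cells, while the median of the 46 genes was 13.89 and 13.87 (SD 0.025 and 0.0062). The 5 genes thus follow the mean and not necessarily the typical ribosomal protein gene.

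The genes lie on 17 chromosomes, with 7 on chromosome 7, 6 on chromosome 17 and 5 on chromosome 9, which carries both Rps25 and Rps27l.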

How the data were processed

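The deposited values are probe set intensities on a linear scale. Per the submitters' processing notes the authors used RMA, for which no version is given; RMA yields log2 values, so log2 was taken here. Intensities ran from 3.77 to 25980. Of 45101 probe sets, 64 controls, 932 with several symbols and 9160 with none were left out of the gene table. Probe set annotation and gene identifiers gave the names, and promoters came from RefSeq (GRCm38.p6).

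All 12 arrays were fitted with 1 mean per group in limma 3.58.1 (R 4.3.3) on 18193 genes, without a filter on level. Residual degrees of freedom were 6, prior degrees 3.45. Tests were two-sided and adjusted by Benjamini-Hochberg within each of 7 comparisons, with calls below 0.05. The fit was tested on simulated data. Figures used Python 3.11.15 and matplotlib 3.10.9.

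The genes and lists were chosen with earlier results of these data known. Named by rule were up to 4 called genes with the largest rise and fall per comparison, the stalk genes, Rpsa, Rpl11, Rps6, genes with a measured paralog, the 5 genes most alike, and up to 4 called genes per list with the smallest p; Rplp1, Rpl5, Rpl3, Rpl10 and Rpl10l were not in the gene table. Others, including single probe sets, Rpl27a, Rpl27, Rpl35, Rpl38, Rpl8, Rps2, Rps19, Rpl37 and macrophage markers, were named after their values were seen. Alternatives were other probe set choices, a level filter, repeated quantile normalization, centring, a variance trend with a robust prior, single comparisons' arrays, a replicate block and leaving out each array.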

Additional observations from a re-analysis of the deposited data

How the results depend on the processing

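With 2 arrays per group, calls near the threshold depended on the setting. Of 620 recomputed values for called genes, 537 kept direction and call, 82 lost the call and 1 turned. The one that turned was Rps6 in Yap cells, 0.000106 when a gene's probe sets were averaged, since its dim second probe set goes the other way. Counts of called genes are given for control density, Tead2-EnR, Tead2-VP16 at confluency, Yap, Tead2-VP16 at high density, Yap over Tead2-VP16 and the Tead2-VP16 density step, where the reported counts are 14, 7, 1, 3, 3, 0 and 2. Leaving out single arrays changed the counts in every comparison except Yap over Tead2-VP16. Averaging probe sets gave 22, 16, 1, 8, 6, 0 and 5 (47.8%, 34.8%, 2.17%, 17.4%, 13%, 0% and 10.9%, against 47.6%, 36.2%, 8.74%, 23.5%, 25.3%, 2.34% and 22.1% of all genes). Probe sets without _x, _s or _a suffix (25 genes) gave 16, 12, 1, 9, 7, 2 and 7 (64%, 48%, 4%, 36%, 28%, 8% and 28%, against 45.9%, 35.4%, 8.27%, 23.7%, 24.6%, 1.95% and 22.3% of all genes). A variance trend with a robust prior gave 25, 16, 10, 5, 9, 0 and 8. Genes above the median level gave 20, 11, 3, 6, 6, 0 and 3 (46.5%, 25.6%, 6.98%, 14%, 14%, 0% and 6.98%, against 81.8%, 70%, 29.5%, 55.8%, 56.6%, 10.8% and 54% of all genes above that level). Every probe set tested gave 14, 6, 0, 2, 3, 0 and 1 (30.4%, 13%, 0%, 4.35%, 6.52%, 0% and 2.17%, against 38.8%, 27.5%, 5.22%, 17.2%, 18.7%, 1.73% and 16.3% of all probe sets). Repeated quantile normalization gave 15, 6, 0, 4, 3, 0 and 2 (32.6%, 13%, 0%, 8.7%, 6.52%, 0% and 4.35%, against 48.8%, 38%, 9.56%, 26.1%, 27.2%, 2.06% and 24.3% of all genes). Arrays centred on medians gave 15, 7, 2, 3, 4, 0 and 1 (32.6%, 15.2%, 4.35%, 6.52%, 8.7%, 0% and 2.17%, against 49.8%, 38.4%, 10.7%, 26.1%, 27.4%, 2.66% and 24.3% of all genes). The arrays of each comparison alone gave 10, 3, 0, 3, 3, 0 and 1 (21.7%, 6.52%, 0%, 6.52%, 6.52%, 0% and 2.17%, against 45.3%, 30.8%, 4.72%, 23.2%, 22.6%, 0.429% and 18% of all genes). With the variance trend the shares of the 46 genes and of all genes were 54.3% and 49.5% in control density, 34.8% and 40.4% for Tead2-EnR and 21.7% and 15.4% for Tead2-VP16 at confluency. They were 10.9% and 30.1% for Yap and 19.6% and 30.8% for Tead2-VP16 at high density. Yap over Tead2-VP16 gave 0% and 5.82%, and the Tead2-VP16 density step 17.4% and 29.1%. Whether the 46 genes were called less often than all genes thus depends on the comparison, the probe set choice and, in control density and Tead2-VP16 at confluency, the variance model.

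Same-numbered arrays of different groups showed no strong shared deviation (r from -0.0612 to 0.101 over 15 group pairs). That check cannot exclude that equal numbers mark samples handled together, which the labels do not settle. With the number as a replicate block, 13, 7, 1, 3, 3, 0 and 1 genes were called (28.3%, 15.2%, 2.17%, 6.52%, 6.52%, 0% and 2.17%, against 48.9%, 38.2%, 8.96%, 25.6%, 26.6%, 1.86% and 24.1% of all genes). The Rps25 call in the Tead2-VP16 density step (adjusted p = 0.0609) and the Rps16 call (0.0521) were lost. Dim probe sets, such as that of Rps16, limit what can be said of single genes, and the labels do not settle whether arrays are separate cultures.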

Other observations

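The 110 probe sets annotated to several symbols, at least 1 of them a ribosomal protein symbol, were left out of the gene table. In the limma fit over all probe sets, 5 were higher and 22 lower in confluent against low-density control cells (38.8% of all probe sets were called), with a median log2 fold change of 0.01. In Tead2-EnR cells 2 were higher and 12 lower (27.5% of all). In Yap cells at high density 2 were higher and 2 lower (17.2%), and in Tead2-VP16 cells at high density 1 was higher and 6 lower (18.7%). Within Tead2-VP16 cells 7 were higher and 0 lower at complete confluency (16.3%), and against confluent control 0 were higher and 1 lower (5.22%). Yap over Tead2-VP16 gave 1 higher and 0 lower (1.73%).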
